A study of Mus musculus with 4 samples.

Results

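Matricellular proteins and small proteoglycans are secreted molecules that sit among the collagen fibres of a tissue and tune how cells and fibres interact. The 10 genes chosen here, by a fixed list of symbols, were Sparc, Fn1, Thbs1, Thbs2, Lum, Dcn, Bgn, Tnc, Fbn1 and Lox. The list was chosen with earlier results of these data known. Of the 10 genes, 9 had at least 1 probe on the array whose annotation names that gene alone, out of 13705 such genes measured in all. Fbn1, the fibrillin of elastic microfibrils, had none and was not analysed here. The 9 genes were covered by 13 probes: 4 for Fn1, 2 for Tnc and 1 for each of the other genes, and all 13 had a value on every array.

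The liver RNA came from male mice of the inbred strain C57Bl/6J. There were 4 conditions with 1 two-colour array each: an atherogenic diet with high fat for 24 weeks, an atherogenic diet for 24 weeks, the atherogenic diet with high fat for 6 weeks, and the atherogenic diet for 6 weeks. On each array the diet liver was labelled with Cy5 and a chow-fed liver with Cy3; the labels give chow of the same duration except for the atherogenic 6-week array, where they give no duration. RNA was amplified before labelling. The sources used here give no diet composition, age of the mice, pooling of animals or sharing of a chow sample between arrays.

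Values are log2 ratios of diet over chow, so 0 is no difference and 1 is a doubling. Folds assume that the deposited logarithms have base 10, which is inferred from their spread. The labels' dyes give the direction, diet over chow, which is not stated for the values themselves. With the ratio turned, every sign would turn, genes given as higher than chow would be lower, and ranks from the top would be ranks from the bottom. Between 27951 and 28806 of 28845 probes had a value on an array, the median gene lay between -0.01 and 0.05, and the SD across genes was 0.37 and 0.45 on the high-fat and plain 24-week arrays and 0.35 and 0.52 on the high-fat and plain 6-week arrays. Where a gene had several probes, their pooled SD was 0.34 to 0.47 within an array. With 1 array a condition there is no replicate error within a condition. Every diet sample was in Cy5, so a dye preference of a probe and an effect of diet cannot be told apart. The values are ratios without levels, so the tissue could not be checked by the level of liver genes. In whole liver RNA, a change in the number of cells of a type and a change in RNA per cell cannot be told apart.

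SPARC binds collagen and calcium and is made by stromal cells wherever matrix is remodelled. Thrombospondins and tenascin C modulate cell adhesion, and fibronectin, which hepatocytes also secrete into plasma, is an adhesive scaffold on which collagen is laid down. Decorin, biglycan and lumican are small leucine-rich proteoglycans that bind collagen fibrils and set their spacing. Lysyl oxidase crosslinks collagen and elastin. In the liver, stellate cells and portal fibroblasts are the best known sources of such matrix when scar tissue forms.

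Upstream sequences were looked up to show what precedes the start of members with and without a rise. RefSeq windows on GRCm38.p6, matched by symbol, are shown for 4 of the 9 measured genes: Sparc, which rose, and Tnc, Thbs2 and Bgn, which did not pass. No window was found for Fn1, Thbs1, Lum and Dcn. Lox, which did not pass either, was left out of this step, so its window was not examined. Each line gives the 250 bases before the annotated start, 5′ to 3′ on the gene's strand. For Tnc, which has a further annotated start, the outer start is shown. Capitals mark matches on either strand to the TATA box letters TATAAA, to the promoter element CCAAT, to the GC box letters GGGCGG, or to the AP-1 site written TGANTCA.
Sparc (chr11:55420081-55420330, - strand): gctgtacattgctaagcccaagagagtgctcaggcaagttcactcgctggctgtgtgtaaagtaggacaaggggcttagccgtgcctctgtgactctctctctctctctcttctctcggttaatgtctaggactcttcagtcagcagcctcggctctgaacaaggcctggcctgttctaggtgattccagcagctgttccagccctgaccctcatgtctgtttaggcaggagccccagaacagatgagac
Tnc (chr4:64047016-64047265, - strand): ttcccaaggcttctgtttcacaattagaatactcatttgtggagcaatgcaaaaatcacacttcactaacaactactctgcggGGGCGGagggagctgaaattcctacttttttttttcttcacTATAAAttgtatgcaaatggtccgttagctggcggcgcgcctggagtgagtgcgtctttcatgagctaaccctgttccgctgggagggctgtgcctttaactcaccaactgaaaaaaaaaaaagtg
Thbs2 (chr17:14694263-14694512, - strand): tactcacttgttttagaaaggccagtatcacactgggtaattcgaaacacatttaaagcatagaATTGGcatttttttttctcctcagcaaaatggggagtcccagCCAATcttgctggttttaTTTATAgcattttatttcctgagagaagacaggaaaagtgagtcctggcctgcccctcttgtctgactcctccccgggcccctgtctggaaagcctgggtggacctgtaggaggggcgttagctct
Bgn (chrX:73483351-73483600, + strand): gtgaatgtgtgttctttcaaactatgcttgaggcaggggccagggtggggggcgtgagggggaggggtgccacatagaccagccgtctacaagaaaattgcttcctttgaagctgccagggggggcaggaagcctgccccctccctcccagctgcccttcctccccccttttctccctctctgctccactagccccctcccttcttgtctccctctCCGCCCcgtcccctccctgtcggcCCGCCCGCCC
The Sparc window held 0 matches to the 4 motifs and had 54.0% G and C, against a median of 52.4% over 32851 RefSeq windows. The Bgn window was richer in G and C, at 64.4%, and held 3 matches to GGGCGG, all on the opposite strand and the pair nearest the start overlapping, while 32.7% of all windows held at least 1. The Tnc window held 1 TATAAA, 126 bases before the start, and 1 GGGCGG. Thbs2 held 2 CCAAT matches and 1 TATAAA. The TATA box letters were held by 12.4% of all windows, the CCAAT element by 33.8% and the AP-1 letters by 6.7%. A match is a run of letters and not a shown binding site.

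The first comparison asks which of these matrix genes differed from chow across the 4 diet conditions. Sparc and Dcn rose, with values above chow on every array, and no member fell. In limma, with p-values adjusted over all 13705 genes, 2 of 9 members were called higher and 0 lower at an adjusted p of 0.05. Among all genes tested, 6.25% were called higher and 5.72% lower. An unadjusted p under 0.05 was found for 3 of 9 members and for 30.7% of all genes. The median of the 9 mean ratios was 0.23, against 0.0046 over all genes. Adjusted p-values measure the spread between the 4 conditions, not between animals.

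Sparc had log2 ratios of 1.19 and 1.80 in livers on the high-fat and plain atherogenic diet at 24 weeks, and of 0.81 and 0.92 on the high-fat and plain diet at 6 weeks. As folds over chow these were 2.28 and 3.48 at 24 weeks and 1.75 and 1.89 at 6 weeks. All 4 values were above chow, both 24-week values were above both 6-week values, and the atherogenic 24-week array stood highest. The mean was 1.18 ± 0.17 (limma SE, 4 arrays; adjusted p = 0.011), with a 95% interval from 0.78 to 1.58. This was 2.26 times chow and ranked 86 from the top of 13705 genes by size. The call ended when arrays of the same diet were treated as a random block (adjusted p = 0.055), and it was kept in each of the 4 fits that left out 1 array.

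Dcn, the gene of decorin, which binds collagen fibrils and the cytokine TGF-beta, was the more even of these 2 genes. Its log2 ratios were 0.92 and 1.21 on the high-fat and plain diet at 24 weeks, and 0.74 and 0.65 on the high-fat and plain diet at 6 weeks. The lowest of these was a 1.57-fold and the highest a 2.32-fold difference from chow. The mean was 0.88 ± 0.11 (limma SE, 4 arrays; adjusted p = 0.0081), or 1.84-fold, with a 95% interval from 0.61 to 1.15. Dcn was called in all 12 alternative fits, including the random block for diet (adjusted p = 0.044), where 1.34% of all genes were called higher. Probe medians and limits on the ratios left the values of this 1-probe gene unchanged, so those fits could hardly end its call.

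Lum, the gene of lumican, a keratan sulphate proteoglycan that binds collagen fibrils, showed the widest range of the 9 genes. It stood at 0.48 and 1.79 on the high-fat and plain diet at 24 weeks, and at 0.65 and 0.05 on the high-fat and plain diet at 6 weeks. Its value on the atherogenic 24-week array, 3.45-fold over chow, matched that of Sparc there, whereas at 6 weeks on the same diet it lay close to chow. The mean of 0.74 ± 0.26 did not pass (limma adjusted p = 0.114), with a 95% interval from 0.11 to 1.37. Without the atherogenic 24-week array its mean was 0.39. With terms for diet and duration, or with duration as a random block, it passed (adjusted p = 0.0195 and 0.0323), in fits that called 20.8% and 17.3% of all genes higher.

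Bgn, the gene of biglycan, a close relative of decorin that also acts as a ligand of innate immune receptors, stood lower against chow than Dcn on every array. It stood at 0.17 and 0.46 on the high-fat and plain diet at 24 weeks, and at -0.02 and -0.37 on the high-fat and plain diet at 6 weeks. The values were above chow on both 24-week arrays and below it on both 6-week arrays. The mean was 0.06 ± 0.14 (limma adjusted p = 0.792; 95% interval from -0.27 to 0.39). It was -0.07 without the atherogenic 24-week array and 0.20 without the atherogenic 6-week array, so its sign is not settled. Dcn exceeded Bgn by 0.75 on both 24-week arrays, by 0.76 on the high-fat 6-week array and by 1.02 on the plain 6-week array. This describes a pair chosen after its values were seen.

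Dcn and Lum lie next to each other on mouse chromosome 10 in the RefSeq gene order, followed by the proteoglycan genes Kera and Epyc, and these neighbours are given for their position. Kera, the gene of the corneal proteoglycan keratocan, stood at 0.23 and 0.15 on the high-fat and plain diet at 24 weeks and at 0.30 and 0.81 at 6 weeks. Epyc, the gene of epiphycan of cartilage, stood at -0.05 and -0.23 on the high-fat and plain diet at 24 weeks and at -0.01 and 0.20 at 6 weeks. Neither passed for diet over chow (limma adjusted p = 0.106 for Kera and 0.883 for Epyc).

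**Figure D1:**
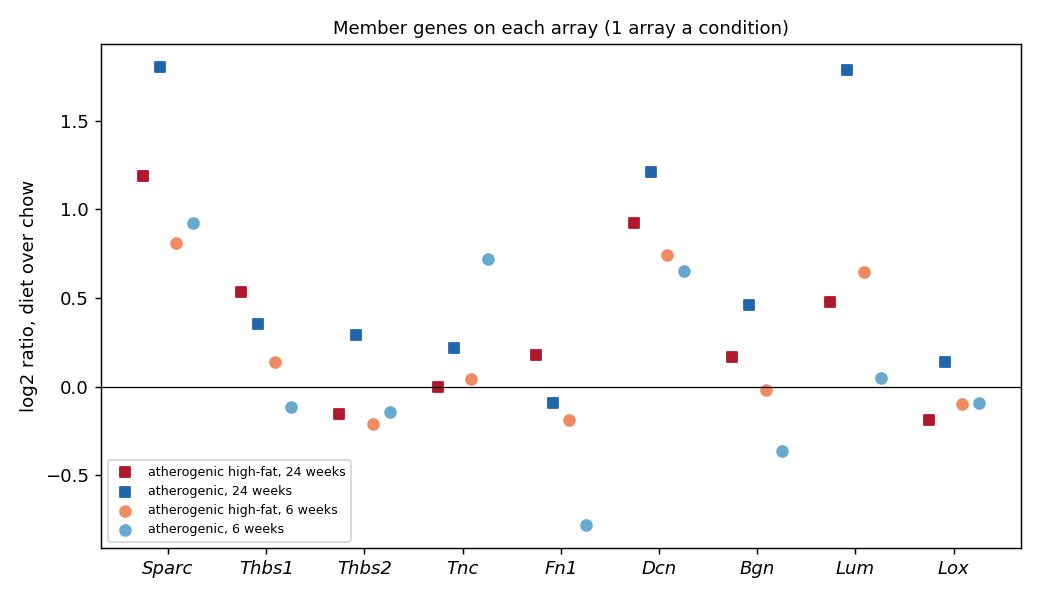
Log2 ratio of diet over chow (vertical axis) for the 9 measured genes (horizontal axis), with 1 point for each array: squares are 24 weeks, circles 6 weeks, red shades the atherogenic high-fat diet and blue shades the atherogenic diet. Sparc, Dcn and Lum lie above 0 on all 4 arrays, and Lum and Sparc reach 1.79 and 1.80 on the atherogenic 24-week array.

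Sparc, Dcn and Lum were thus above chow on all 4 arrays, 3 of 9 members against 20.7% of all genes, and 0 of 9 were below chow on all 4, against 20.0%. At least 2-fold higher values were seen for the same 3 genes on the atherogenic 24-week array, where 2.14% of all genes reached that size. On the high-fat 24-week array Sparc alone did, against 0.963% of all genes. No member was 2-fold higher on the high-fat or plain 6-week array, against 0.671% and 4.31% of all genes, and no member was 2-fold lower on any array. Of all genes, 1.55% and 1.29% were 2-fold lower on the high-fat and plain 24-week arrays, and 1.33% and 1.64% on the high-fat and plain 6-week arrays.

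Of the adhesion-modulating members, Thbs1, the gene of thrombospondin 1, which activates latent TGF-beta, stood at 0.53 and 0.35 on the high-fat and plain diet at 24 weeks. At 6 weeks it stood at 0.14 and -0.12 on the high-fat and plain diet. Its highest value, on the high-fat 24-week array, lay above 95.6% of all genes there. The mean of 0.23 ± 0.12 did not pass (limma adjusted p = 0.254; 95% interval from -0.06 to 0.52), and it was 0.12 without the high-fat 24-week array.

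Thbs2, the gene of thrombospondin 2, an inhibitor of blood vessel growth, lay near chow throughout. It stood at -0.16 and 0.29 on the high-fat and plain diet at 24 weeks, and at -0.21 and -0.14 on the high-fat and plain diet at 6 weeks. Its mean was -0.05 ± 0.11 (limma adjusted p = 0.763), with a 95% interval from -0.31 to 0.20. Lox, the gene of lysyl oxidase, was as flat, at -0.19 and 0.14 on the high-fat and plain diet at 24 weeks and at -0.10 and -0.09 at 6 weeks. The mean of Lox was -0.06 ± 0.09 (limma adjusted p = 0.688; 95% interval from -0.27 to 0.15), an interval that does not hold a change as large as that of Sparc or Dcn.

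Tnc, the gene of tenascin C, which is scarce in healthy adult tissue and made at sites of injury, had 2 probes that disagreed. Probe AGmmA051310 stood at 0.09 and 0.63 on the high-fat and plain diet at 24 weeks, and at 0.34 and 1.59 on the high-fat and plain diet at 6 weeks. Probe AGmmB210613 stood at -0.10 and -0.20 at 24 weeks and at -0.25 and -0.15 at 6 weeks, below chow on all 4 arrays. The gap between the probes reached 1.74 log2 units on the atherogenic 6-week array, where the pooled SD between probes of a gene was 0.47. Their mean, 0.25 ± 0.13 for diet over chow, did not pass (limma adjusted p = 0.265; 0.09 without the atherogenic 6-week array), and neither did either probe alone (adjusted p = 0.119 and 0.245 over all probes). No value for the gene as a whole can be read from probes that differ in sign.

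Fn1, the gene of fibronectin, had the lowest mean of the 9, and that mean rested on 1 array. As the mean of 4 probes it stood at 0.18 and -0.09 on the high-fat and plain diet at 24 weeks, and at -0.19 and -0.78 on the high-fat and plain diet at 6 weeks. The atherogenic 6-week value, 0.58 of chow, lay above only 3.41% of all genes on that array. The mean of -0.22 ± 0.16 did not pass (limma adjusted p = 0.377; 95% interval from -0.59 to 0.15), and without the atherogenic 6-week array it was -0.03. All 4 Fn1 probes were below chow on the atherogenic 6-week array, between -1.10 and -0.45. On the high-fat 24-week array 3 probes lay between 0.22 and 0.44, and the probe AGmmB201001 lay at -0.23. That probe was also below chow on the other 3 arrays, at -0.47, -0.29 and -0.45 on the plain 24-week, high-fat 6-week and plain 6-week arrays. The sources used here do not say which part or splice form of the transcript each probe reads.

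**Figure D2:**
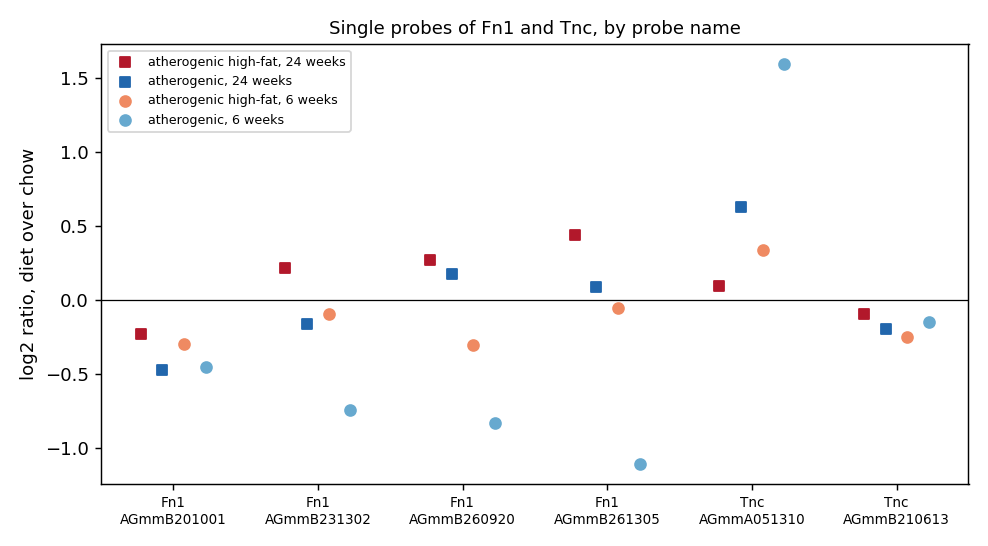
Log2 ratio of diet over chow (vertical axis) for the 4 probes of Fn1 and the 2 probes of Tnc (horizontal axis, probe names), with 1 point for each array: squares are 24 weeks, circles 6 weeks, red shades the high-fat and blue shades the plain atherogenic diet. The atherogenic 6-week points reach -1.10 for Fn1 and 1.59 for 1 probe of Tnc, while the other Tnc probe stays between -0.25 and -0.10.

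**Figure D3:**
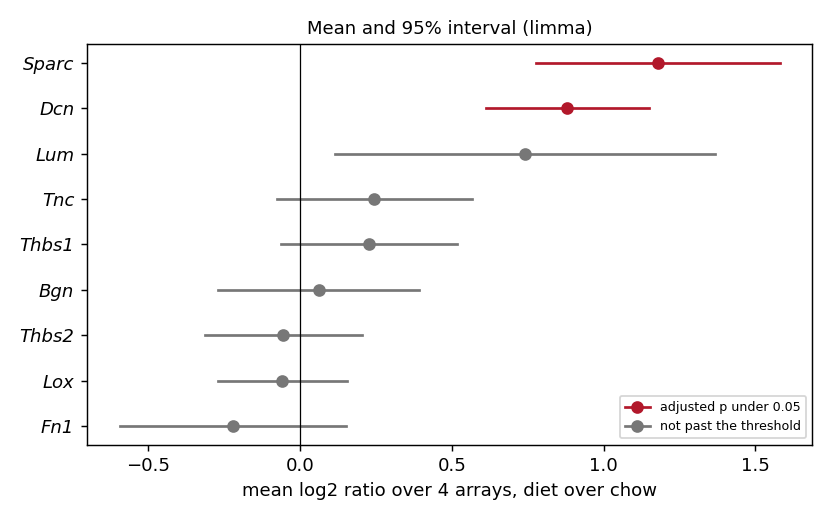
Mean log2 ratio of diet over chow across the 4 arrays (horizontal axis) for each of the 9 genes (vertical axis), with the 95% interval of limma as a line. The 2 genes in red, Sparc at 1.18 and Dcn at 0.88, passed an adjusted p of 0.05, and the interval of Lum, from 0.11 to 1.37, is the widest.

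The second comparison asks whether the added high fat moved these genes relative to the plain atherogenic diet. In the additive limma model 0 of 9 members were called higher and 0 lower, against 3.99% and 7.25% of all genes. An unadjusted p under 0.05 was found for 2 of 9, Fn1 and the probe mean of Tnc, against 32.7% of all genes. Errors and p-values of this model measure how far the high-fat difference varies between the durations, moderated across genes, not the spread between animals. Fn1 was higher with high fat by 0.59 at 6 weeks and by 0.27 at 24 weeks, a model difference of 0.43 ± 0.15 (adjusted p = 0.0977). At a looser adjusted p of 0.1 Fn1 would be called higher, as were 8.35% of all genes. The mean of the Tnc probes, -0.45 ± 0.16 (limma adjusted p = 0.106), stands for neither of them. Probe AGmmA051310 of Tnc, tested among all 27870 probes, was lower with high fat by -0.90 ± 0.19 (limma adjusted p = 0.0314), where 7.07% of probes were called lower. The other Tnc probe differed by 0.0017 ± 0.14 (limma adjusted p = 0.994).

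Sparc had a model difference of -0.36 ± 0.17 between high fat and plain diet (limma adjusted p = 0.174), and Dcn one of -0.10 ± 0.16 (adjusted p = 0.677). With the arrays scaled to a common spread these differences were 0.16 and 0.31, so their direction is not settled. Lum was higher with high fat by 0.60 at 6 weeks and differed by -1.31 at 24 weeks. Dcn and Bgn changed sign between the durations as well, with differences of 0.09 and 0.35 at 6 weeks and of -0.29 at 24 weeks for each gene. Differences of Thbs1, Thbs2, Bgn and Lox in the model lay between -0.26 and 0.22. High fat was above plain diet at both durations for 2 of 9 members, Fn1 and Thbs1, against 31.1% of all genes, and below it at both for 4, Sparc, Thbs2, Lox and the probe mean of Tnc, against 43.3%. Genes of hepatocytes moved with this contrast: 7 of 14 measured markers were called lower with high fat and 1, Fga, higher. The median of that list was -0.50 and 0.47 on the high-fat and plain 24-week arrays, and -0.82 and 0.18 on the high-fat and plain 6-week arrays. Called lower with high fat were also 3 of 12 macrophage markers (Vsig4, Cd14 and Cd163, by -1.18, -0.68 and -0.64), 1 of 8 bile duct markers (Krt19, -0.75) and 1 of 7 platelet markers (Pf4, -0.60). Of 13 stellate cell markers 1, Hand2, was called higher (0.57) and 0 lower. The median difference of the stellate list was -0.03, and its lowest, -0.54 for Vim, did not pass. These markers were named after their values were seen. Their part in the values of Fn1, which hepatocytes also make, and of the other matrix genes was not tested.

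The third comparison sets 24 against 6 weeks of feeding. No gene of the 13705 was called in limma, and 1353 genes (9.87%) had an unadjusted p under 0.05. Among the members 5 of 9 did, namely Sparc, Fn1, Thbs1, Dcn and Bgn, all with higher ratios at 24 weeks. Model differences were 0.63 ± 0.17 for Sparc, 0.52 ± 0.15 for Fn1, 0.50 ± 0.18 for Bgn, 0.43 ± 0.14 for Thbs1 and 0.37 ± 0.16 for Dcn. Their limma adjusted p-values lay between 0.352 and 0.494, so none is called. The Fn1 difference is a mean over probes that spread widely. Probe AGmmB201001 differed by 0.02 ± 0.14 and AGmmB231302 by 0.44 ± 0.15. Probes AGmmB260920 and AGmmB261305 differed by 0.79 ± 0.16 and 0.84 ± 0.19. None of these probes passed (limma adjusted p between 0.323 and 0.973). Lum had the largest difference of the 9 genes, 0.79 ± 0.38 (limma adjusted p = 0.547), with the largest error. In the additive model an error measures how far the duration difference varies between the diets, moderated across genes. It does not measure the spread between animals.

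Within the high-fat diet the difference between 24 and 6 weeks was 0.38 for Sparc, 0.36 for Fn1, 0.40 for Thbs1, 0.18 for Dcn and 0.19 for Bgn. Within the plain diet the same genes differed by 0.88, 0.69, 0.47, 0.56 and 0.82. With Thbs2, at 0.05 and 0.43 in the high-fat and plain diet, 6 of 9 members were higher at 24 weeks in both diets, against 30.5% of all genes. Of the others, 1 gene, Tnc, was lower in both diets as a mean of its probes, against 27.3% of all genes, but the probes differed. The model difference between 24 and 6 weeks was -0.60 ± 0.19 for Tnc probe AGmmA051310 and 0.05 ± 0.14 for the other, and neither passed (limma adjusted p = 0.445 and 0.941). Lum differed by -0.17 in the high-fat diet and by 1.74 in the plain diet, and Lox by -0.09 and 0.23. The atherogenic 24-week array held the highest of the 4 values for 6 of 9 members, against 29.0% of all genes. Each such difference rests on 1 array a condition, and both diets at 24 weeks may share a chow sample, so no error can be given for it. It also holds any difference between the chow samples, and the labels give no chow duration for the atherogenic 6-week array.

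**Figure D4:**
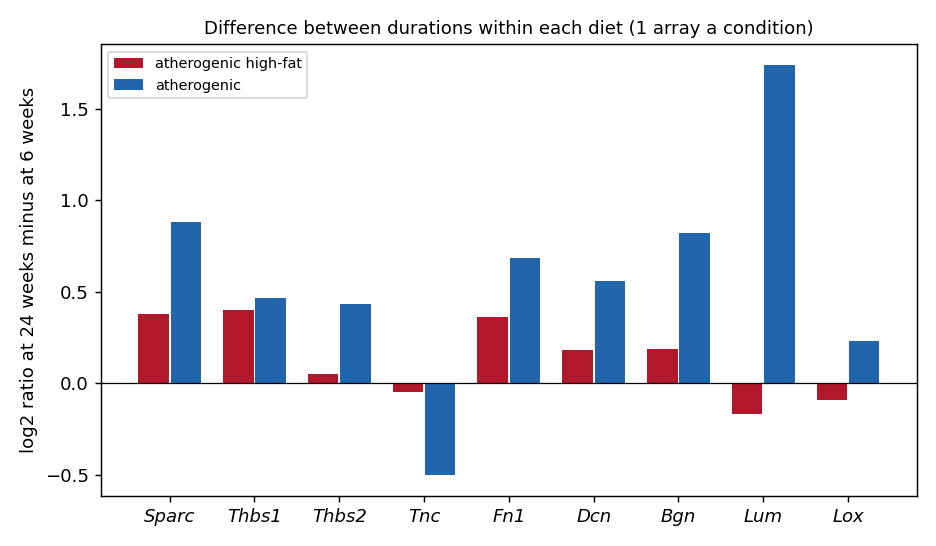
Log2 ratio at 24 weeks minus that at 6 weeks (vertical axis) for the 9 genes (horizontal axis), with red bars for the atherogenic high-fat diet and blue bars for the atherogenic diet, each from 1 array at each duration and without error bars. The blue and red bars lie furthest apart for Lum, at 1.74 against -0.17.

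Related matrix genes, from lists of the same pathway, were read from the same fits. Their counts for diet over chow stand beside the 6.25% of all genes called higher and the 5.72% called lower. Counts for high fat over the plain diet stand beside 3.99% of all genes called higher and 7.25% called lower. Nothing particular to a list is read from these counts. Of 17 other matricellular genes, 3 rose over chow and 1 fell, with a list median of 0.11. Tgfbi, an adhesion protein induced by TGF-beta, rose by 0.90 ± 0.11, the testican gene Spock1 by 0.65 ± 0.12 and Postn, the gene of periostin, by 0.49 ± 0.10 (limma adjusted p = 0.0072, 0.021 and 0.0257). Thbs4, a thrombospondin of the other structural group than Thbs1 and Thbs2, fell by 0.44 ± 0.09 (adjusted p = 0.0313). It was at -0.28 and -0.56 on the high-fat and plain diet at 24 weeks and at -0.33 and -0.60 at 6 weeks. With high fat 2 of the 17, Smoc1 and Ccn2, were called lower, at -0.89 and -0.75, and were named after their values were seen.

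None of 10 other small leucine-rich proteoglycan genes passed for diet over chow, and the list median was -0.01. Optc, the gene of opticin, had the largest mean, -0.47 ± 0.14 (limma adjusted p = 0.0778). With high fat 1 of the 10, Ogn, the gene of osteoglycin, was called lower by -0.99 (limma adjusted p = 0.0245) and was named after its value was seen. Ogn stood at -0.79 and 0.52 on the high-fat and plain diet at 24 weeks and at -0.85 and -0.17 at 6 weeks. Of 13 elastic fibre and microfibril genes 3 rose and 1 fell. Efemp1, the gene of fibulin 3, rose by 0.80 ± 0.15, Mfap4 by 0.52 ± 0.11 and Emilin1 by 0.47 ± 0.12. Fbn2, a fibrillin relative of the unmeasured Fbn1, fell by 0.78 ± 0.13 (limma adjusted p = 0.016) and was below chow on all 4 arrays, between -1.17 and -0.43. No gene of this elastic fibre list was called with high fat.

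No lysyl oxidase relative or lysyl hydroxylase of 7 measured passed for diet over chow, and Plod2, which hydroxylates collagen telopeptides, had the largest mean, 0.48 ± 0.13 (limma adjusted p = 0.0591). With high fat 2 of the 7, Loxl2 and Plod3, named after their values were seen, were called lower, by -1.21 and -0.58 (limma adjusted p = 0.0139 and 0.0495). Loxl2 stood at -0.69 and 0.51 on the high-fat and plain diet at 24 weeks, and at -0.63 and 0.60 on the high-fat and plain diet at 6 weeks, whereas Lox stayed between -0.19 and 0.14. Of 14 large and other proteoglycan genes only Srgn, the gene of serglycin of blood cell granules, rose over chow, by 1.24 ± 0.08 (adjusted p = 0.0014). Called lower with high fat were 2 of the 14, Gpc4 and Sdc2, by -1.09 and -0.75 (limma adjusted p = 0.0235 and 0.0307). They too were named after their values were seen. Of 15 receptor genes 2 rose over chow, Cd36 by 0.88 and Itgb5 by 0.75, and 3 fell. Cd47, a thrombospondin receptor, fell by 0.47, the integrin subunit gene Itga4 by 0.54, and the collagen receptor gene Ddr2, named after its value was seen, by 0.36. With high fat 1 of the 15, Cd36, was called higher, by 0.73 (limma adjusted p = 0.0329), and none lower.

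Some markers of the cells that could hold these transcripts were called over chow as well, again beside 6.25% of all genes called higher and 5.72% lower. Of 13 stellate cell markers 3 rose (Vim by 1.41, Rgs5 by 0.59 and Lrat by 0.48) and Pdgfrb fell by 0.40, while Acta2 and Des stood at 0.12 and -0.08 and did not pass. The median of that list was 0.13 and 0.30 on the high-fat and plain 24-week arrays and 0.12 and 0.06 on the high-fat and plain 6-week arrays. Of 4 portal fibroblast markers Thy1 and Msln fell, by 2.98 and 0.46. The other members, Entpd2 and Gas6, had means of 0.23 and 0.43 and did not pass, and the list median was -0.12. Of 11 endothelial markers 1 rose, Vwf, by 0.34, a share near that of all genes. Of 7 platelet markers Ppbp and Gp5 rose, by 0.47 and 0.36. The platelet list had a median of 0.0089, with means from -0.11 (Gp9) to 0.51 (Pf4, which did not pass). Of 12 macrophage markers 5 rose (Ctss, C1qb, C1qa, C1qc and Cd68, by 0.83 to 2.32) and Vsig4 fell by 1.33. Of 8 bile duct markers Tspan8 and Krt23 rose, by 2.19 and 0.92. Of 14 hepatocyte markers 1 rose, Apoh, by 1.09, a share near that of all genes, and 0 fell. The median of the hepatocyte list was -0.36. The called markers outside the member lists were named after their values were seen. Their part in the rise of Sparc and Dcn was not tested.

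The genes whose 4 ratios lay nearest to those of Sparc, by Euclidean distance over the 4 arrays, were C1qa, which encodes a complement subunit made by macrophages, Ttbk2, a tubulin kinase gene, and Anxa5, an annexin gene, at distances of 0.22, 0.26 and 0.36. C1qa stood at 1.19 and 1.61 on the high-fat and plain diet at 24 weeks and at 0.76 and 1.01 at 6 weeks. Nearest to Dcn were Cystm1, Anxa13 and the actin gene Actg1, at distances of 0.17, 0.20 and 0.26. These are descriptions over 4 conditions.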

How the data were processed

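AceGene Mouse Oligo Chip 30K arrays carried amplified liver RNA and were scanned on an Agilent G2505B scanner, read with GenePix Pro 4.1 and LOWESS-normalized in GeneSpring 7.2, per the series' design text. The deposited values are signed log10 ratios, per the labels' dyes diet (Cy5) over chow (Cy3). Base 10 is inferred, scale and direction are not stated for the values, and centring beyond LOWESS is unknown. Median deposited values were 0.006 and -0.005 on the high-fat and plain 24-week arrays and 0.006 and -0.019 on the high-fat and plain 6-week arrays. No source used here names a background correction or spot filter, and no spot intensities were used.

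Values were converted to log2. Probes with a missing value (975 of 28845) were left out. The platform annotation gave 1 symbol for 17637 probes, several for 64 and no entry for 11144, which stay unnamed. Symbols were updated to RefSeq by gene identifier (252 probes did not match). Probes of a gene were averaged, for 2759 genes with several. Tests used limma 3.58.1 in R 4.3.3 (lmFit, eBayes, two-sided, Benjamini-Hochberg over all genes): the mean of 4 arrays against 0 with 3 residual degrees of freedom, and an additive model of high fat and duration with 1. Their interaction cannot be tested. Members and lists were chosen with earlier results of these data known. Named were all members, up to 2 highest and 2 lowest called genes per list (or the largest mean), and the 3 genes nearest each called member. Alternatives were centring, scaling, probe medians, single probes, robust eBayes, limits on ratios, a looser threshold, other models, other log bases and leaving out each array.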

Additional observations from a re-analysis of the deposited data

Results flagged for a closer look

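Bgn stood above chow on both 24-week arrays and below it on both 6-week arrays, and the additive limma model gave a difference between durations of 0.50 ± 0.18 that was not called (adjusted p = 0.439). The share of all genes or probes with such a split was not counted. The same split was seen for a pair of Fn1 probes, which stand for the same gene. Probe AGmmB260920 had 0.27 and 0.18 on the high-fat and plain diet at 24 weeks and -0.31 and -0.83 at 6 weeks, a difference of 0.79 ± 0.16 (limma adjusted p = 0.323). Probe AGmmB261305 had 0.44 and 0.09 at 24 weeks and -0.05 and -1.10 at 6 weeks, a difference of 0.84 ± 0.19 (limma adjusted p = 0.37). The other Fn1 probes, AGmmB201001 and AGmmB231302, did not split in this way and had smaller differences, 0.02 ± 0.14 and 0.44 ± 0.15.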

How the results depend on the processing

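The count of 2 members called higher for diet over chow was 1 with diet as a random block, which ended the call of Sparc, and 5 with terms for diet and duration, which added Lum, Thbs1 and the probe mean of Tnc; over all genes these fits called 405 and 5219, against 1640. The mean ratios of the members were the same in these fits and their errors differed. For Sparc the SE was 0.24 with the diet block and 0.083 with both terms, against 0.17. The consensus correlation between arrays of a block was 0.466 with diet as the block and -0.467 with duration as the block. What lies behind these correlations was not tested. With 1 array left out the count was 2 in each of the 4 fits, with mean ratios of 0.97 to 1.30 for Sparc and 0.77 to 0.96 for Dcn, while the count over all genes was 286 without the atherogenic 24-week array, 759 without the high-fat 24-week array and 784 without the high-fat 6-week array. For high fat over plain diet, 1 member, Fn1, was called higher at an adjusted p under 0.1, and 1 of the 2 probes of Tnc was called lower with all probes as units. Of 216 repeats of single members 204 kept direction and side of the threshold, 5 passed only in the repeat, 1 no longer passed, and 6 changed sign without a call on either side. Many of these repeats could hardly differ. Probe medians leave the 7 members with 1 probe unchanged, no member ratio reached the limits, and no gene was called for duration. Read as natural or base 2 logarithms, the rise of Sparc would be 1.43- or 1.28-fold and that of Dcn 1.30- or 1.20-fold. Precision is limited by the number of arrays.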
